A study of Mus musculus with 20 samples.

Results

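The DNA replication machinery was followed as 50 genes of the 24411 gene symbols in each of the authors' 5 comparison tables. The members were taken by symbol, from a list of the subunits and regulators that license origins, unwind and copy DNA and supply its nucleotides, and not by any measured value. They fell into 10 roles: origin licensing (9 genes), the MCM helicase (6), origin firing (10), the sliding clamp and its loader (6), polymerase alpha with primase (4), polymerase delta (4), polymerase epsilon (4), Okazaki fragment maturation (2), the single-strand DNA binding complex RPA (3) and ribonucleotide reductase (2). Of the 50, 49 were tested in 4 comparisons and 50 in the fifth. The remaining gene, Pold1, the catalytic subunit of polymerase delta, had mean counts too low for an adjusted p except in the last.

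Replication is prepared in G1, when the origin recognition complex (ORC), Cdc6 and Cdt1 load the MCM helicase on DNA, and Gmnn, geminin, blocks Cdt1 once S phase has begun. Kinases, Cdc45 and the GINS complex then turn the loaded helicase into a moving fork, primase and polymerase alpha start each strand, and polymerases delta and epsilon extend it on the clamp Pcna. An egg carries these gene products as maternal mRNA and protein, and the zygote copies both parental genomes before most of the embryo's own transcription begins.

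The study sequenced poly(A) RNA of mouse eggs and of zygotes and 2-cell embryos, with 7 groups made up of 20 samples. Every sample pooled a batch of 10 to 15 of them, and its RNA was copied from oligo-dT by Smart-seq2. All were untreated: oocytes left dbcAMP and matured in M16 medium. For zygotes and 2-cell embryos, but not for MII eggs, fertilization in vitro and growth in KSOM at low oxygen followed. The C57BL/6J groups were MII eggs (arrested in the second meiosis, before the first embryonic S phase), G1 zygotes, G2 zygotes (after the first S phase) and 2-cell embryos in G2 (after the second), 3 samples each. For the B6CASTF1 hybrid there were 3 samples of G1 zygotes, 3 of G2 zygotes and, as used here, 2 of 2-cell embryos in G2. The names of the C57BL/6J comparisons call those groups WT. The labels give no age, no cross direction and nothing on whether batches within a group came from different females or dates. A p-value thus reflects the spread among the batches at hand, which may be technical. Strain, sequencing run and library set cannot be told apart as far as the labels go.

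Per-sample values are not in the tables, so library depth is unknown, and neither the value of a single sample nor the overlap of groups can be given. Precision was read from the authors' SE, whose median over the members was 0.67 in each C57BL/6J comparison and 0.25 and 0.28 in B6CASTF1. Over all genes tested that median was 1.26, 1.23 and 1.27 in the C57BL/6J comparisons and 0.57 and 0.75 in B6CASTF1. The shares of all genes called, given below, are not matched for SE and so set genes of unlike precision side by side. An implied level, in normalized counts, was computed for each gene and stage from the strain's mean count and the fold changes. Where a value is followed by an adjusted p and an SE, it is a log2 fold change from the authors' fit. Both strains were normalized separately, so their levels are set side by side only as a description. The tissue labels were checked with marker lists: 10 oocyte genes summed to an implied level of 272344 in C57BL/6J MII eggs and 22712 in its 2-cell embryos. A list of 2-cell genes, of which 9 of 10 were in the tables, summed to 403 in MII eggs, 10324 in C57BL/6J 2-cell embryos and 31800 in B6CASTF1 2-cell embryos. A list of 10 cumulus and granulosa genes summed to 302 to 1685 in C57BL/6J and to 1533 to 2382 in B6CASTF1, and 10 sperm and testis genes to 110 to 566 and to 139 to 967. A list of 8 blood and oviduct genes summed to 396 to 748 before the 2-cell stage and 6823 at it in C57BL/6J, and to 346 to 588 and 10192 in B6CASTF1, led by Hba-a1 and Epcam. Implied levels under 1 were held by 5 to 6 of the cumulus genes in C57BL/6J and 2 to 4 in B6CASTF1, and by 4 to 5 and 3 of the blood and oviduct genes. Their part in any result was not tested. In a batch, fewer cells and less RNA per cell cannot be told apart, and the normalization sets no scale for total RNA.

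The promoters were read from RefSeq (GRCm38.p6) as windows of 300 bases, from 250 bases before the annotated start, and 42 of the 50 genes matched, with 52 windows. E2F factors are the transcription factors that drive many replication genes in dividing cells, and their site was searched as the letters TTTGGCGC, TTTCGCGC, TTTCCCGC and TTTGCCGC on both strands. At least 1 of these stood in 18 of the 52 windows (34.6%), which belong to 17 genes, against 744 of all 32851 windows (2.26%). The member windows were also richer in G and C, with a median of 61.8% against 52.7% over all windows. The letters CCAAT, bound by NF-Y, stood in 27 member windows (51.9%) against 37.4% of all. The NR5A letters TCAAGGTCA and TCAAGGCCA, searched because the title of the series names Nr5a2, stood in 1 member window (1.92%) against 1.01% of all windows. A match is a description of letters, not a site or a cause, and a window without a match says nothing of the factor.

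The windows of 4 genes are shown because all 4 changed in the same direction in both strains between G2 zygotes and 2-cell embryos. Mcm6, Mcm5 and Rfc3 hold at least 2 E2F matches each, and Rpa2 holds the NR5A match. Capitals mark the E2F letters of Mcm6 (chr1:128359656-128359955, minus strand), which rose. They mark those of Mcm5 (chr8:75109259-75109558, plus strand) and Rfc3 (chr5:151651159-151651458, minus strand), which fell. In Rpa2 (chr4:132768110-132768409, plus strand), which rose, capitals mark TCAAGGCCA, which lies on the other strand. Each sequence runs 5′ to 3′ on its gene's strand.

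Mcm6: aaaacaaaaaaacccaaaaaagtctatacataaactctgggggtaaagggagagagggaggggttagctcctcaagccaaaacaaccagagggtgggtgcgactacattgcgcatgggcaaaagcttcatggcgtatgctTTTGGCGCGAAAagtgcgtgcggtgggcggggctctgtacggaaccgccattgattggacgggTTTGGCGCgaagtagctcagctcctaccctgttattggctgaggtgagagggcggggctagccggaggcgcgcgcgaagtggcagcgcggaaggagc

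Mcm5: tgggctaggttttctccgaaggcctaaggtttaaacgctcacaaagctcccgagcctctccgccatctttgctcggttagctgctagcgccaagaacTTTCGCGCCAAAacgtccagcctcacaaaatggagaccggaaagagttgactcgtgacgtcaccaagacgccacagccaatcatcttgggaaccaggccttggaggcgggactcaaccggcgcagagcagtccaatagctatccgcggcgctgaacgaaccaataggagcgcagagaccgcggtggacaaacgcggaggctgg

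Rfc3: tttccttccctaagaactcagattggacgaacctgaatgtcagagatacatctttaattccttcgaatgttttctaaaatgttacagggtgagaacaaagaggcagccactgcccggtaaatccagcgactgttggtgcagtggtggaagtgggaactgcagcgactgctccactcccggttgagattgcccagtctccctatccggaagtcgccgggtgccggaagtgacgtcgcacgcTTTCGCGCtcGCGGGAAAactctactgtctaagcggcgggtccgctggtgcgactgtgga

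Rpa2: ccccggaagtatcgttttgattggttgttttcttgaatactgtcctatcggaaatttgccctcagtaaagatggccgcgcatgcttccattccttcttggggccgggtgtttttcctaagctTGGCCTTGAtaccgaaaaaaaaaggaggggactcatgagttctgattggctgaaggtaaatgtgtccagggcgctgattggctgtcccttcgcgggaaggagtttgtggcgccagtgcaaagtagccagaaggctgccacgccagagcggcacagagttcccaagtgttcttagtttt

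The first capital run of Mcm6 and the run of Mcm5 each hold overlapping matches on opposite strands. In Rfc3 the matches lie at the start itself, 10 bases before it and at 0. Among members that changed at the 2-cell step in both strains, E2F letters thus stood in the windows of Mcm6 and Gins3, which rose, and of Mcm5, Rfc3 and Pole2, which fell. Gmnn and Pole, which also rose in both, had no window and were not searched.

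**Figure D1:**
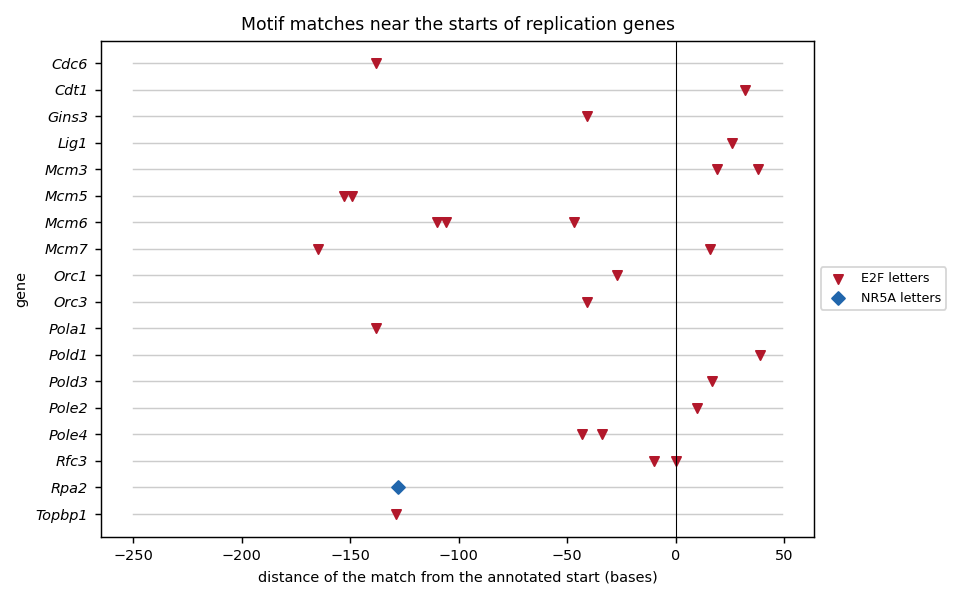
Positions of E2F letters (red triangles) and NR5A letters (blue diamond) in the promoter windows of the replication genes that hold one, in bases from the annotated start (0). The grey lines span 250 bases before the start to the end of the window; Mcm6 holds 3 E2F matches and Rpa2 the single NR5A match.

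Per kb of transcript, the members differed in abundance by orders of magnitude within 1 stage. In C57BL/6J MII eggs the highest implied level per kb was that of Orc6, the smallest ORC subunit, at 22354, followed by Rpa3 at 20645, Gmnn at 17242, Pole4 at 9979 and Pcna at 7443. At the other end stood Pole, the catalytic subunit of polymerase epsilon, at 2.11, Rfc2 at 0.71 and Pold1 at 0.03. Subunits of 1 complex were thus far apart in mRNA: in the same eggs Orc3 stood at 63.8 per kb beside Orc6, and Rpa2 at 15.9 beside Rpa3. In B6CASTF1 2-cell embryos, with stages weighted 3, 3 and 2, the highest levels per kb were Gmnn at 16861, Orc6 at 16413, Cdc45 at 9111, Pole4 at 7810.1 and Rpa2 at 7232. With equal weights the order turned within these pairs, to 16225 for Orc6 over 15419 for Gmnn and 7989 for Pole4 over 7720 for Cdc45, and Pcna at 5755 stood above Rpa2 at 5669. No error can be given for a level, so neighbours in these orders were not tested.

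**Figure D2:**
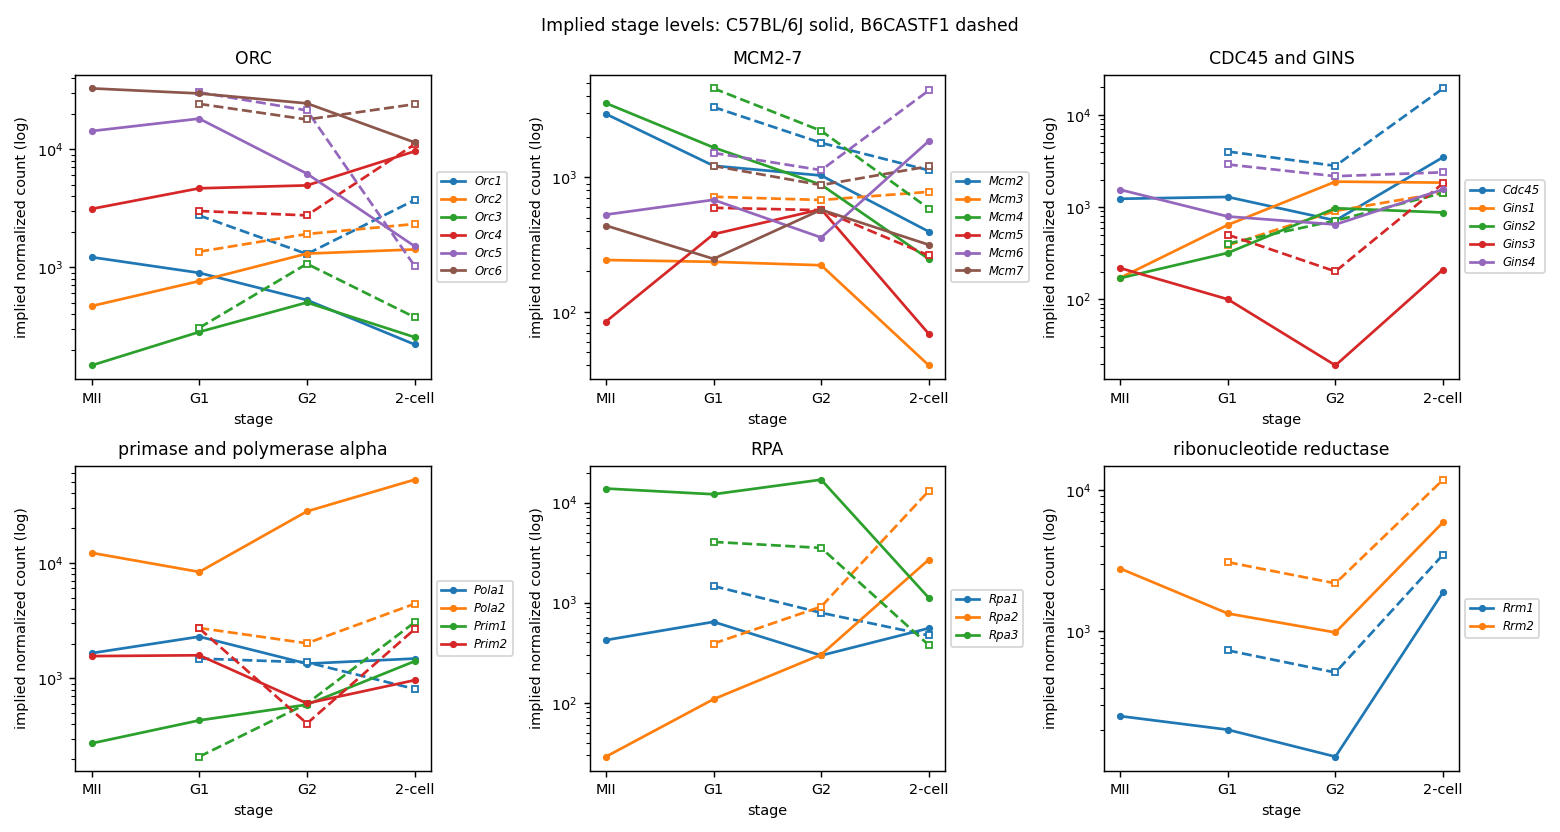
Implied level (normalized counts, log axis) of 6 groups of replication genes by stage, with C57BL/6J as solid lines and filled points and B6CASTF1 as dashed lines and open squares. Points carry no error bars because the tables give no per-sample values. Rpa2 goes from 28.9 in MII eggs to 2696 in 2-cell embryos of C57BL/6J while Rpa3 goes from 13832 to 1115.

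The comparison of G1 zygotes with MII eggs shows the machinery across fertilization, before the first S phase. Of 49 members tested, 1 rose and 0 fell, against 1.62% of all 13551 genes tested that rose and 1.12% that fell. The riser was Gins1, a subunit of the GINS complex that joins Cdc45 on the active helicase. Its implied level was 171 in MII eggs and 643 in G1 zygotes, which is 1.91 (adjusted p = 3.1e-04, SE 0.41) as a log2 fold change in the authors' deposited table. The median log2 fold change over the members was 0.15, beside -0.08 over all genes tested, and over genes whose mean count reached 100 it was 0.02, beside -0.07. At an unadjusted p under 0.05 the count was 8 of 49 members, beside 8.97% of all genes, by the same DESeq2 table. Mcm5, a helicase subunit, and Rpa2 had values as large that missed the threshold, 2.16 (adjusted p = 0.21, SE 0.85) and 1.91 (adjusted p = 0.91, SE 1.33) in the authors' deposited table. With every SE raised 1.5 times, the call of Gins1 was lost.

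The comparison of G2 with G1 zygotes spans the first S phase. In C57BL/6J, Gins1 rose again and Orc5 and Pole3 fell: 1 member up and 2 down of 49, beside 5.01% and 2.87% of 13264 genes. In B6CASTF1, where SE were smaller, 8 rose and 14 fell of 49, beside 9.63% and 9.63% of 14668 genes. The median SE there was 0.25 over the members and 0.57 over all genes, and call shares at matched SE were not computed. The median log2 fold change over the members was -0.45 in C57BL/6J, beside 0.12 over all genes, and -0.31 in B6CASTF1, beside 0.00. Over genes whose mean count reached 100, the C57BL/6J median was -0.29, beside 0.04. This comparison shares its G1 zygotes, in C57BL/6J, with the one before it, and its G2 zygotes with the 2-cell comparisons.

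Gins1 rose in both strains, and Orc5 and Pole3 fell in both, which is 1 and 2 of 49 members beside 2.28% and 1.24% of the 12517 genes tested in both. Gins1 went from 643 to 1897 in C57BL/6J and from 386 to 912 in B6CASTF1. These are log2 fold changes of 1.56 (adjusted p = 0.0034, SE 0.41) and 1.24 (adjusted p = 5.7e-05, SE 0.27) in the authors' deposited table of each strain. Orc5, another ORC subunit, went from 18146 to 6196 and from 30329.8 to 21332. Its values in the authors' deposited table of each strain were -1.55 (adjusted p = 0.031, SE 0.50) and -0.51 (adjusted p = 0.0043, SE 0.15). Pole3, a histone-fold subunit of polymerase epsilon, had -1.37 (adjusted p = 0.042, SE 0.46) and -0.85 (adjusted p = 1.8e-04, SE 0.20) in the same deposited tables of the authors. The C57BL/6J calls of Orc5 and Pole3 were both lost at a threshold of 0.01, and that of Pole3 also without the authors' filter on low counts. With every SE raised 1.5 times none of the C57BL/6J calls remained, 0 of 3, and in B6CASTF1 4 members rose and 3 fell.

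In B6CASTF1 the largest fall of a member in the zygote was in Prim2, the large primase subunit, while its partner Prim1, the catalytic subunit, rose. Prim2 went from 2706 in G1 to 407 in G2, with -2.73 (adjusted p = 2.0e-40, SE 0.20) in the authors' deposited table. Prim1 went from 210.2 to 606, with 1.53 (adjusted p = 2.6e-06, SE 0.29) in the authors' deposited table. The mRNAs of this enzyme pair thus moved in opposite directions in the zygote. In C57BL/6J, Prim2 had -1.38 (adjusted p = 0.062, SE 0.50) and Prim1 had 0.45 (adjusted p = 0.84, SE 0.66) in the authors' deposited table.

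Other risers in B6CASTF1 were spread over the roles. Orc3, another ORC subunit, went from 306 to 1067, with 1.80 (adjusted p = 4.4e-12, SE 0.24) in the authors' deposited table. The values of the authors' deposited table were 1.23 (adjusted p = 2.7e-05, SE 0.25) for Rpa2, the middle RPA subunit, 1.195 (adjusted p = 8.9e-04, SE 0.30) for Rfc3, a clamp loader subunit, and 0.83 (adjusted p = 0.0064, SE 0.25) for Gins2. Cdc6, the loading ATPase, and Pold3, an accessory subunit of polymerase delta, rose with 0.91 and 0.49 in the authors' deposited table. The fallers included subunits of the MCM helicase and of ORC.

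Mcm4 went from 4596 to 2222 and Mcm2 from 3338 to 1808, with -1.05 (adjusted p = 2.7e-07, SE 0.18) and -0.88 (adjusted p = 1.1e-05, SE 0.18) in the authors' deposited table. Orc1, an ATPase subunit of ORC, had -1.08 (adjusted p = 3.3e-04, SE 0.26) and Cdc45 had -0.52 (adjusted p = 0.0021, SE 0.14) in the authors' deposited table. The fall was smaller in 5 other members: -0.44 for Orc6, -0.43 for Pcna, -0.36 for Pole4, -0.50 for Rrm2 and -0.51 for Rfc5 in the authors' deposited table. Gins3 and Rpa1 fell with -1.32 and -0.89 in the authors' deposited table. The calls of Pole4 and Rpa1 were lost when fold changes were recentred on the median of all genes. With a minimum absolute log2 fold change of 1, 5 members rose and 4 fell.

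Where the difference between strains was tested directly, as the difference of fold changes over the combined SE, no member passed at this step, with 0 higher and 0 lower in B6CASTF1. The background was 1.04% and 0.879% of 12517 genes. The nearest was Pola2, the second subunit of polymerase alpha, whose difference was -2.18 (adjusted p = 0.055, SE 0.67). Pola2 stood at 8332 and 27827 in C57BL/6J and at 2727 and 2012 in B6CASTF1. The larger number of B6CASTF1 calls is therefore not a tested difference between strains, and 36 of the 49 members had the same sign in both. As a description, Pearson's r across these members was 0.37 and Spearman's rho 0.48. The share of all genes with the same sign was not computed.

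**Figure D3:**
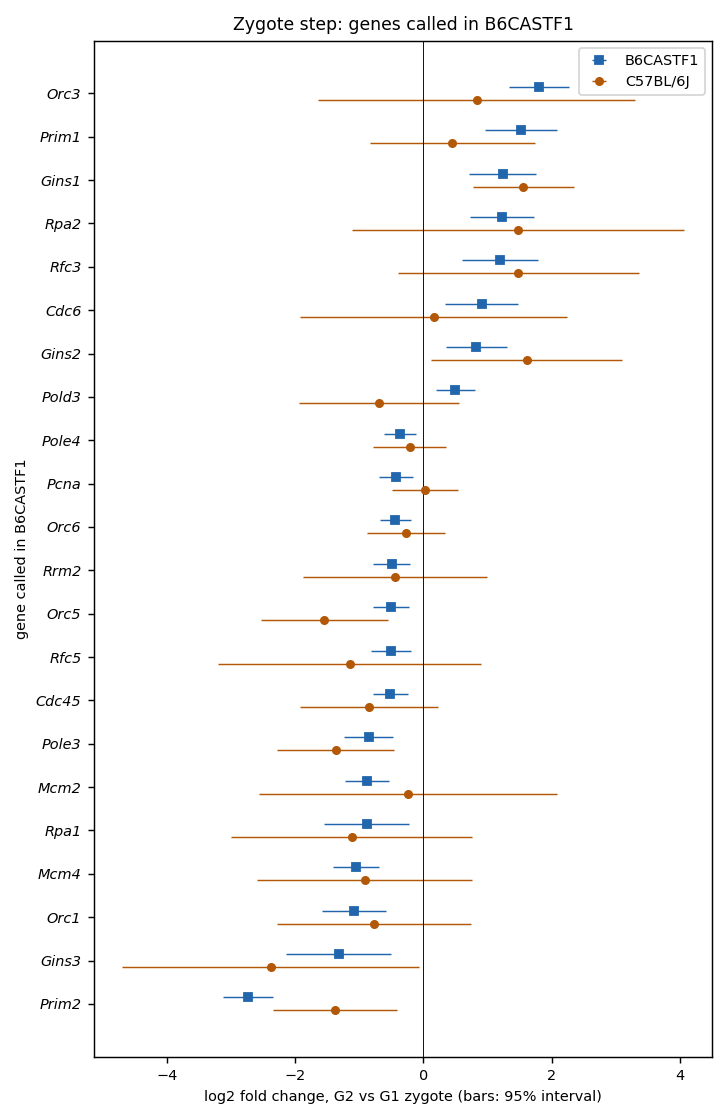
Log2 fold change between G2 and G1 zygotes for the 22 genes called in B6CASTF1 (blue squares) with the same genes in C57BL/6J (orange circles), and bars of 1.96 SE (95% intervals) from the authors' deposited tables. The C57BL/6J intervals are wider, and in that strain 3 of these genes, Gins1, Orc5 and Pole3, passed the adjusted threshold.

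The step from the G2 zygote to the 2-cell embryo spans the first mitosis, the major activation of the embryo's genome and the second S phase. Both subunits of ribonucleotide reductase, Cdc45, Rpa2 and Mcm6 rose in both strains, and Orc5, Rpa3, Rfc3, Mcm5 and Pole2 fell in both. In C57BL/6J 14 members rose and 6 fell of 49, beside 25% and 25.3% of 12839 genes. In B6CASTF1 22 rose and 14 fell of 50, beside 33.1% and 26.8% of 16128 genes. The median log2 fold change over the members was 0.45 in C57BL/6J, beside 0.17 over all genes, and 0.46 in B6CASTF1, beside 0.55. Over genes whose mean count reached 100 both comparisons turned: the members' median was 0.16 in C57BL/6J, below 0.23 over all such genes, and 0.45 in B6CASTF1, above 0.21. The G2 zygotes are also in the comparison with G1, so opposite values at both steps are not independent. With every SE raised 1.5 times, 4 rose and 2 fell in C57BL/6J. Its calls of Rrm1, Rrm2, Rpa2, Mcm6, Rfc3, Mcm5 and Pole2 were among those lost.

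Of 49 members tested in both strains, 11 rose in both (Cdc45, Gins3, Gmnn, Mcm6, Orc4, Pole, Pole3, Rfc4, Rpa2, Rrm1 and Rrm2) and 5 fell in both. The background was 20.7% of 12573 genes up in both and 18.4% down in both. Orc6 was called in opposite directions, beside 0.986% of genes. A further 19 were called in B6CASTF1 alone, 3 (Gins4, Pole4 and Rfc2) in C57BL/6J alone and 10 in neither, beside 26.5%, 10.6% and 22.8% of genes. As a description, 33 of 49 had the same sign, with Pearson's r 0.63 and Spearman's rho 0.71 across genes, which are not independent replicates since those of a strain share its libraries. Both coefficients include Rfc2, at 9.94 in C57BL/6J and 0.93 in B6CASTF1, and neither was computed over all genes. Over genes whose mean count reached 100, the median of all fold changes was 0.23 in C57BL/6J and 0.21 in B6CASTF1. Relative to it, the C57BL/6J calls of Gmnn, Pole4 and Rpa2 and the B6CASTF1 calls of Gins1 and Orc6 were lost, and no called member changed its direction. Calls gained were falls of Lig1 and Mcm4 in C57BL/6J and of Pole4 and Rpa1 in B6CASTF1.

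**Figure D4:**
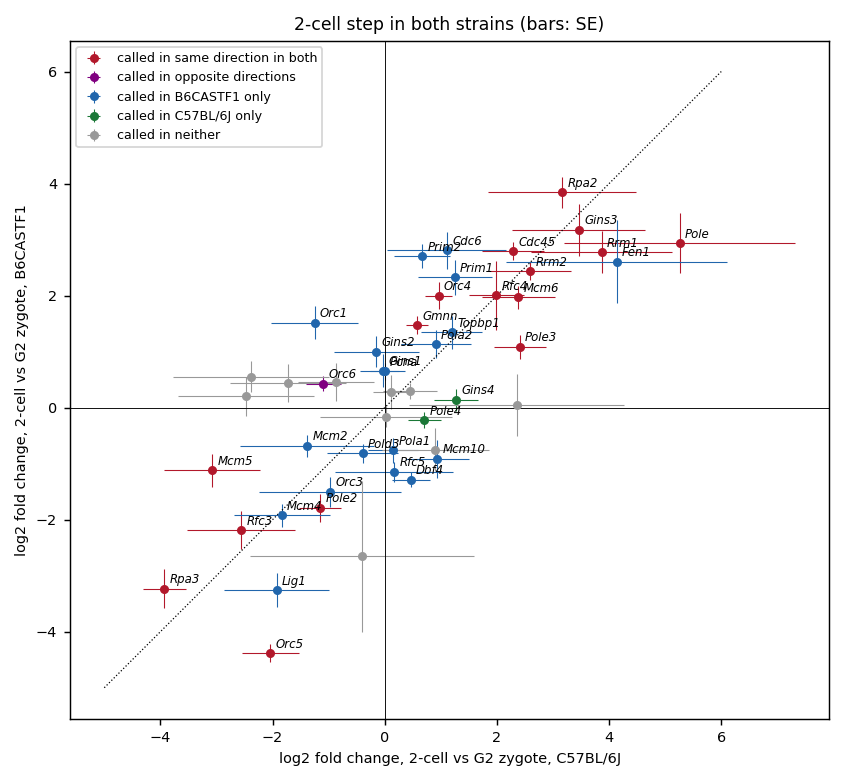
Log2 fold change between 2-cell embryos and G2 zygotes in C57BL/6J (x axis) and B6CASTF1 (y axis) for 48 replication genes, with SE bars from the authors' deposited tables and the dotted line of equality. Rfc2 (9.94 in C57BL/6J) is outside the range and Pold1 was not tested in C57BL/6J; Orc5 and Rpa3 sit low in both strains, and Rpa2, Gins3 and Pole high in both.

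The origin licensing genes split within ORC. Orc5 fell in both strains: its implied levels in C57BL/6J were 14249 in MII eggs, 18146 in G1 zygotes, 6196 in G2 zygotes and 1505 in 2-cell embryos, and in B6CASTF1 G1, G2 and 2-cell they were 30329.8, 21332 and 1025. The values at the 2-cell step were -2.04 (adjusted p = 2.1e-04, SE 0.51) in C57BL/6J and -4.38 (adjusted p = 2.8e-152, SE 0.17) in B6CASTF1 in the authors' deposited table of each. Orc4, an ATPase subunit, rose in both, from 4931 to 9590.2 and from 2746 to 10984. Its values in the authors' deposited table of each strain were 0.96 (adjusted p = 3.3e-04, SE 0.24) and 2.00 (adjusted p = 7.5e-16, SE 0.24). Subunits of 1 complex thus moved apart by the 2-cell stage. Orc6 went from 24469.7 to 11428 in C57BL/6J, with -1.10 (adjusted p = 0.0014, SE 0.31), and from 17857 to 24061 in B6CASTF1, with 0.43 (adjusted p = 0.0043, SE 0.14), in the authors' deposited table. The B6CASTF1 call of Orc6 was lost on recentring and with every SE raised 1.5 times, and its C57BL/6J call with the raised SE. In B6CASTF1 Orc1 rose with 1.52 (adjusted p = 4.1e-07, SE 0.29) and Orc3 fell with -1.50 (adjusted p = 7.7e-08, SE 0.27) in the authors' deposited table.

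Among the loading factors and their inhibitor, Gmnn rose in both strains and Cdc6 in B6CASTF1. Gmnn, the abundant Cdt1 inhibitor, was at 19432 in MII eggs, 19151 in G1 zygotes, 19322 in G2 zygotes and 28879.7 in 2-cell embryos in C57BL/6J and at 8011, 6834 and 19002 in B6CASTF1. It rose at the 2-cell step with 0.58 (adjusted p = 0.0071, SE 0.19) and 1.48 (adjusted p = 1.0e-17, SE 0.17) in the authors' deposited table of each strain. Cdc6 went from 711 to 4971 in B6CASTF1, with 2.81 (adjusted p = 2.7e-17, SE 0.32), and had 1.10 (adjusted p = 0.40, SE 1.06) in C57BL/6J, in the authors' deposited table. Cdt1, which Gmnn holds back, was called in no comparison: its C57BL/6J levels were 648, 371, 303 and 58.3 and its B6CASTF1 levels 1013, 987 and 1446, in stage order.

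Within the MCM helicase, a ring of 6 different subunits, Mcm6 rose while Mcm2, Mcm4 and Mcm5 fell in at least 1 strain. Mcm6 was at 529, 682, 357 and 1866 in C57BL/6J from MII eggs to 2-cell embryos and at 1521, 1133 and 4439 in B6CASTF1 from G1 zygotes on. Its values at the 2-cell step were 2.38 (adjusted p = 9.2e-04, SE 0.66) and 1.97 (adjusted p = 2.8e-21, SE 0.20) in the authors' deposited table of each strain. Mcm5 fell from 580.2 to 68.6 and from 571 to 263, with -3.08 (adjusted p = 9.6e-04, SE 0.85) and -1.12 (adjusted p = 4.4e-04, SE 0.30) in the authors' deposited table of each. Mcm4 fell in B6CASTF1 with -1.92 (adjusted p = 1.7e-19, SE 0.21) and had -1.84 (adjusted p = 0.062, SE 0.86) in C57BL/6J in the authors' deposited table. Its C57BL/6J levels were 3569, 1670.2, 883 and 247 in stage order, each lower than the one before. Mcm2 fell in B6CASTF1 with -0.68 (adjusted p = 0.0014, SE 0.20) in the authors' deposited table. Mcm3 and Mcm7 passed in no comparison: Mcm3 stood at 243, 236, 222 and 40.0 in C57BL/6J and 718, 679.6 and 781 in B6CASTF1, and Mcm7 at 439, 248, 575 and 316 and 1218, 877 and 1210.5.

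Of the factors that fire origins, Cdc45, which rides on the helicase, rose in both strains. Its levels were 1236, 1293, 719 and 3494 in C57BL/6J and 4028, 2814 and 19524 in B6CASTF1, in stage order. The 2-cell step gave 2.28 (adjusted p = 1.4e-04, SE 0.55) and 2.79 (adjusted p = 6.1e-71, SE 0.16) in the authors' deposited table of each strain. Of the 4 GINS subunits, Gins3 rose in both, from 19.2 to 211 and from 201 to 1821, with 3.46 (adjusted p = 0.0088, SE 1.182) and 3.18 (adjusted p = 3.6e-11, SE 0.46) in the authors' deposited table of each. Gins4 rose in C57BL/6J, with 1.27 (adjusted p = 0.0034, SE 0.39), and had 0.14 (adjusted p = 0.56, SE 0.20) in B6CASTF1, in the authors' deposited table. Gins1 and Gins2 rose in B6CASTF1, from 912 to 1439 and from 715 to 1431, with adjusted p of 0.044 and 5.5e-04 in the authors' deposited table. The B6CASTF1 call of Gins1 was lost on recentring, without the filter on low counts and with every SE raised 1.5 times. In C57BL/6J their log2 fold changes were -0.04 and -0.15, with no call, in the authors' deposited table. From MII eggs to 2-cell embryos of C57BL/6J, Gins1 thus went 171, 643, 1897 and 1851 and Gins4 1551, 794, 649 and 1562.

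Dbf4, the activating subunit of the Cdc7 kinase, fell in B6CASTF1 from 11854 to 4867, with -1.28 (adjusted p = 6.9e-20, SE 0.14), and had 0.46 (adjusted p = 0.25, SE 0.34) in C57BL/6J, in the authors' deposited table. The kinase Cdc7 itself passed nowhere and stood far below Dbf4, at 160.4 per kb in C57BL/6J MII eggs beside 4505. Topbp1, a scaffold for origin firing, rose in B6CASTF1 with 1.34 (adjusted p = 2.0e-05, SE 0.30) and had 1.197 (adjusted p = 0.054, SE 0.54) in C57BL/6J in the authors' deposited table. Mcm10, a fork factor, fell in B6CASTF1 with -0.91 (adjusted p = 0.014, SE 0.34) in the authors' deposited table. Ticrr, which brings Topbp1 to origins, was called in no comparison and stood at 798, 1599, 1007 and 1025 in C57BL/6J and 2232, 1695 and 1510.4 in B6CASTF1.

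The clamp Pcna was called in B6CASTF1 alone, and its loader subunits went different ways. Pcna stood at 11298, 7281, 7406 and 7391 in C57BL/6J, with no call, and rose in B6CASTF1 from 5709 to 8963, with 0.65 (adjusted p = 4.3e-05, SE 0.15) in the authors' deposited table. Rfc4 rose in both strains, from 358 to 1419 and from 182 to 731, with 1.99 (adjusted p = 2.0e-04, SE 0.49) and 2.01 (adjusted p = 0.0023, SE 0.61) in the authors' deposited table of each. Rfc3 fell in both, from 1946 to 329.9 and from 2455 to 539, with -2.56 (adjusted p = 0.018, SE 0.96) and -2.19 (adjusted p = 4.6e-10, SE 0.34) in the authors' deposited table of each. The zygote had held the peak of Rfc3 in the implied levels, which were 307, 696, 1946 and 329.9 in C57BL/6J. Rfc5 fell in B6CASTF1 with -1.14 (adjusted p = 7.3e-10, SE 0.18) in the authors' deposited table. Rfc2 rose in C57BL/6J with 9.94 (adjusted p = 0.0012, SE 2.79) in the authors' deposited table, a value that rests on an implied level of 0.19 in G2 zygotes beside 190.1 in 2-cell embryos and gives no usable fold. Rfc1, the large loader subunit, was called nowhere, at 3433, 3457, 2028 and 2774 in C57BL/6J and 5424, 4374 and 5371 in B6CASTF1.

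In primase and polymerase alpha, which start each strand, 3 of 4 subunits rose in B6CASTF1 and none was called in C57BL/6J. Prim2 returned from 407 in G2 zygotes to 2659 in 2-cell embryos of B6CASTF1, with 2.71 (adjusted p = 2.0e-33, SE 0.22) in the authors' deposited table. It had been 2706 in G1. Prim1 went on from 606 to 3046, with 2.33 (adjusted p = 6.2e-13, SE 0.31) in the authors' deposited table. Pola2 rose with 1.13 (adjusted p = 1.4e-05, SE 0.25) while Pola1, the catalytic subunit, fell with -0.76 (adjusted p = 0.0016, SE 0.23) in the authors' deposited table. In C57BL/6J the values of the authors' deposited table were 1.25 (SE 0.66) for Prim1, 0.67 (SE 0.50) for Prim2, 0.91 (SE 0.63) for Pola2 and 0.15 (SE 0.44) for Pola1. Implied levels of Pola2 in C57BL/6J were 12177, 8332, 27827 and 52278 in stage order.

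Polymerase epsilon, which extends the leading strand, was called at all 4 subunits in C57BL/6J. Pole rose there from 10.5 to 400.0 and in B6CASTF1 from 70.6 to 540.0, with 5.26 (adjusted p = 0.024, SE 2.06) and 2.94 (adjusted p = 1.2e-07, SE 0.53) in the authors' deposited table of each. Pole3 rose after its fall in the zygote, to 2395 and 1966, with 2.40 (adjusted p = 1.4e-06, SE 0.46) and 1.09 (adjusted p = 1.9e-06, SE 0.22) in the authors' deposited table of each. Pole2, an accessory subunit, fell to 795 from 1770.4 and to 399.6 from 1381, with -1.16 (adjusted p = 0.0046, SE 0.37) and -1.79 (adjusted p = 8.7e-12, SE 0.25) in the authors' deposited table of each. The abundant Pole4, the partner of Pole3, rose in C57BL/6J with 0.70 (adjusted p = 0.036, SE 0.29) and had -0.23 (adjusted p = 0.16, SE 0.14) in B6CASTF1 in the authors' deposited table. Within the enzyme, the catalytic subunit and the histone-fold pair were thus called up in C57BL/6J and Pole2 down. With every SE raised 1.5 times the C57BL/6J calls of Pole, Pole2 and Pole4 were lost, and that of Pole4 was also lost on recentring.

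Polymerase delta, which copies the lagging strand, had low implied levels in 3 of its 4 subunits. Pold1 had implied levels of 0.10, 0.098, 0.69 and 0.16 in C57BL/6J and 0.20, 0.16 and 28.4 in B6CASTF1, and at the 2-cell step of B6CASTF1 the value was 7.46 (adjusted p = 0.13, SE 4.33) in the authors' deposited table. Pold2 stood at 42.3, 82.5, 21.5 and 109 in C57BL/6J and 290.0, 216 and 224 in B6CASTF1, with no call. Pold4, the smallest subunit, stood at 37.9, 78.7, 38.1 and 28.7 and 61.8, 104 and 16.4, also with no call. Pold3 was the well measured subunit and fell in B6CASTF1 from 6579.6 to 3738, with -0.82 (adjusted p = 7.4e-06, SE 0.17) in the authors' deposited table. The genes of Okazaki fragment maturation moved apart in B6CASTF1: Lig1, the ligase that seals the fragments, fell from 659.7 to 68.9, and Fen1, the flap nuclease, rose from 143 to 867. Their values in the authors' deposited table were -3.26 (adjusted p = 3.4e-26, SE 0.30) and 2.60 (adjusted p = 0.0010, SE 0.74). In C57BL/6J they were -1.93 (adjusted p = 0.074, SE 0.94) and 4.14 (adjusted p = 0.067, SE 1.97) in the authors' deposited table.

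RPA, which coats single-stranded DNA at the fork, had subunits that moved in opposite directions. Rpa2 was at 28.9 in MII eggs, 108 in G1 zygotes, 302 in G2 zygotes and 2696 in 2-cell embryos in C57BL/6J, and at 390.1, 913 and 13111 in B6CASTF1. Rpa3, the smallest subunit, was at 13832 in MII eggs, 12127 in G1 zygotes, 16959 in G2 zygotes and 1115 in 2-cell embryos in C57BL/6J, and at 4049, 3527 and 376 in B6CASTF1. Rpa2 was thus lowest in the egg where Rpa3 was high, and at the 2-cell stage it stood above Rpa3 in B6CASTF1 and just below it in C57BL/6J, per kb of transcript (1487 beside 1664 in C57BL/6J and 7232 beside 561 in B6CASTF1). The 2-cell step of Rpa2 gave 3.16 (adjusted p = 0.035, SE 1.32) and 3.84 (adjusted p = 1.3e-41, SE 0.28) in the authors' deposited table of each strain. For Rpa3 it gave -3.93 (adjusted p = 2.8e-23, SE 0.38) and -3.23 (adjusted p = 3.9e-20, SE 0.34) in the authors' deposited table of each. Rpa1, the large subunit, had 0.90 (adjusted p = 0.45, SE 0.96) and -0.75 (adjusted p = 0.077, SE 0.38) in the authors' deposited table of each.

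Ribonucleotide reductase, which makes the building blocks of DNA, rose at both subunits in both strains. Rrm2, the subunit whose level limits the enzyme in S phase, was at 2782, 1337, 982 and 5909 in C57BL/6J and 3085, 2186 and 11832 in B6CASTF1, in stage order. Its 2-cell step gave 2.59 (adjusted p = 0.0013, SE 0.73) and 2.44 (adjusted p = 3.1e-50, SE 0.16) in the authors' deposited table of each strain. Rrm1, the large subunit, went from 129.7 to 1894 and from 511 to 3489, with 3.87 (adjusted p = 0.0054, SE 1.25) and 2.77 (adjusted p = 7.2e-13, SE 0.37) in the authors' deposited table of each. Both mRNAs were at their lowest implied level in G2 zygotes, after the first S phase, in both strains. From G1 to G2 zygotes only the fall of Rrm2 in B6CASTF1 was called, and that call was lost with every SE raised 1.5 times.

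**Figure D5:**
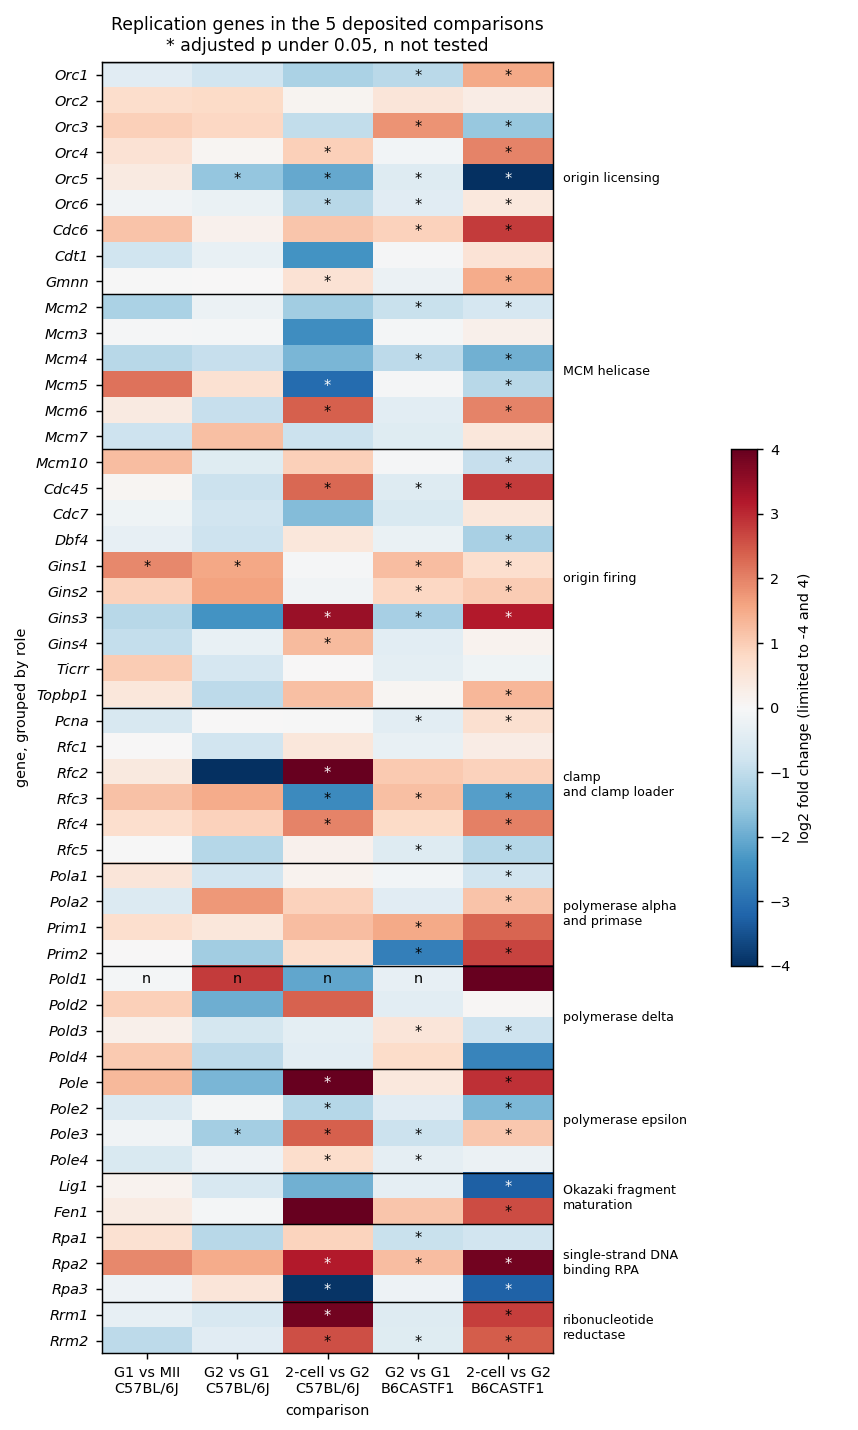
Log2 fold change of the 50 replication genes (rows, by role) in the 5 comparisons (columns), limited to -4 and 4, from the authors' deposited tables; stars mark an adjusted p under 0.05 and n marks genes not tested. The first columns hold 1 and 3 stars, and stars are most frequent in the 2-cell step of B6CASTF1, where 22 genes rose and 14 fell.

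At the 2-cell step the difference between strains was itself past the threshold for 10 members of 49: 5 were higher in B6CASTF1 (background 11.6% of 12573 genes) and 5 lower (5.03%). Orc1, Orc4, Orc5 and Orc6 are among the 10. Orc6 had a difference (B6CASTF1 minus C57BL/6J, log2) of 1.53 (adjusted p = 1.7e-04, SE 0.34), the sum of a fall in C57BL/6J and a small rise in B6CASTF1. Orc1 differed by 2.77 (adjusted p = 0.0083, SE 0.83), with -1.25 (SE 0.78) in C57BL/6J in the authors' deposited table. Orc4 rose in both strains, and more in B6CASTF1, by 1.04 (adjusted p = 0.020, SE 0.34). Orc5 fell in both, and further in B6CASTF1, by -2.34 (adjusted p = 2.3e-04, SE 0.53). These differences share their G2 zygotes with the step from G1 to G2, so the values at both steps are not independent. At that earlier step each of the 10 but Pole4 had a strain difference of the opposite sign, and no member passed there.

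The other higher values were those of Prim2, 2.04 (adjusted p = 0.0024, SE 0.54), and Gmnn, 0.90 (adjusted p = 0.0054, SE 0.26). Among the lower values, that of Dbf4 was -1.75 (adjusted p = 4.3e-05, SE 0.36), with implied 2-cell levels of 6735 in C57BL/6J and 4867 in B6CASTF1. Pole4 differed by -0.93 (adjusted p = 0.031, SE 0.33) and Mcm10 by -1.85 (adjusted p = 0.035, SE 0.66). Rfc2 differed by -9.01 (adjusted p = 0.016, SE 2.90), which rests on its implied level near 0 in C57BL/6J G2 zygotes. Nearest below the threshold were Pole3, -1.32 (adjusted p = 0.059, SE 0.51), and Gins4, -1.13 (adjusted p = 0.059, SE 0.44). With every SE raised 1.5 times, 1 of the 10, Dbf4, remained.

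The members called in no comparison numbered 10 of 50: Orc2, Cdt1, Mcm3, Mcm7, Cdc7, Ticrr, Rfc1, Pold1, Pold2 and Pold4. The share of all genes called in no comparison was not computed. Orc2, another ORC subunit, stood at 468, 762, 1302 and 1412 in C57BL/6J and 1352, 1909 and 2320.2 in B6CASTF1, and its log2 fold changes in the authors' deposited table of each comparison ran from 0.12 to 0.77, with SE of 0.27 to 0.32. For Rfc1 they ran from -0.77 to 0.45 with SE of 0.13 to 0.48 in the authors' deposited tables. The intervals of Mcm3, Cdt1 and Cdc7 in C57BL/6J were wide, with SE up to 1.21, 1.39 and 1.03 in the authors' deposited tables. A missed threshold there does not show that their levels held.

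The genes around the machinery, from lists of genes that are not members, were counted in the same tables. Of 12 nucleotide supply genes, 7 rose and 1 fell in C57BL/6J 2-cell embryos and 8 rose and 2 fell in B6CASTF1, beside the shares of all genes given above. The leading ones were Nme1, which balances nucleoside triphosphates, with 4.93 (adjusted p = 1.7e-27, SE 0.44) and 4.81 (adjusted p = 9.5e-75, SE 0.26), and Shmt1, a folate enzyme, with 6.79 (adjusted p = 6.3e-06, SE 1.40) and 6.36 (adjusted p = 2.4e-50, SE 0.42), in the authors' deposited table of each strain. Of other fork and origin factors, 5 rose and 2 fell of 23 in C57BL/6J and 14 rose and 4 fell of 27 in B6CASTF1. Those counts stand beside the same shares of all genes. Top2b, a topoisomerase, fell with -8.25 (adjusted p = 5.8e-22, SE 0.82) and -7.24 (adjusted p = 3.7e-31, SE 0.61) in the authors' deposited table of each, and Timeless, of the fork protection complex, had -1.08 (adjusted p = 0.10, SE 0.57) and -3.41 (adjusted p = 2.5e-33, SE 0.28) in the authors' deposited table of each.

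Of 9 genes of replication-coupled chromatin assembly, 3 rose and 4 fell in C57BL/6J and 3 rose and 5 fell in B6CASTF1 at the 2-cell step. Dnmt1, the maintenance DNA methyltransferase, had -2.81 (adjusted p = 1.1e-12, SE 0.37) and -4.27 (adjusted p = 3.2e-164, SE 0.16), and its partner Uhrf1 -1.69 (adjusted p = 0.032, SE 0.69) and -4.03 (adjusted p = 1.2e-88, SE 0.20), in the authors' deposited table of each strain. Of the S-phase regulators, 4 rose and 4 fell of 18 in C57BL/6J, which is 22.2% each. In B6CASTF1 7 rose and 7 fell of 22, which is 31.8% each. All genes stood at 25% up and 25.3% down in C57BL/6J and at 33.1% and 26.8% in B6CASTF1, for both lists. Cyclin E1, Ccne1, rose with 9.19 (adjusted p = 5.3e-10, SE 1.40) and 5.82 (adjusted p = 5.6e-113, SE 0.26) while E2f5 fell with -1.74 (adjusted p = 1.6e-08, SE 0.29) and -3.32 (adjusted p = 4.9e-82, SE 0.17) in the authors' deposited table of each. Between G1 and G2 zygotes the 4 lists gave 1 rise and 4 falls of 64 genes in C57BL/6J, beside 5.01% and 2.87% of all genes, and 3 rises and 14 falls of 69 in B6CASTF1, beside 9.63% in each direction. Between MII eggs and G1 zygotes 0 of their 64 genes were called, and 5 had an unadjusted p under 0.05, beside 8.97% of all genes, in the same DESeq2 table.

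Some members share exons with a neighbour on the GRCm38 annotation (GENCODE M21), and whether the counting used strand is not stated in these sources. There were 18 such genes, among them Orc5 with Gm15421 on the same strand, Orc6 with Vps35, Orc4 with Mbd5, Cdc45 with Ufd1, Rfc4 with Eif4a2 and Fen1 with Tmem258, each on the opposite strand. Pcna and Topbp1 have named pseudogenes. Reads of these pairs could be split between the genes, so their values are uncertain to that extent. On the same build Orc5 spans chr5:22486485-22550429, Cdc45 chr16:18780447-18811987, Rpa2 chr4:132768332-132778752, Rpa3 chr6:8255936-8259173, Rrm2 chr12:24708241-24714146 and Prim2 chr1:33453810-33669795. The 50 genes lie on 15 chromosomes.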

How the data were processed

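Stages were compared by the authors with DESeq2, in 5 deposited tables. The authors' tools were bcl2fastq, kallisto, TopHat, Picard and DESeq2 and the build mm10, per the submitters' processing notes, with no role given for each. The authors' DESeq2 version was 1.18.1, per the file names. Every table gives, per the file headers, the mean normalized count of a gene, its log2 fold change, plain and shrunken, with the SE, the Wald statistic (a score) and p-values before and after adjustment. Oligo-dT priming means that polyadenylated RNA was counted. The mean counts were identical across the tables of a strain, so each strain was taken as 1 fit.

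A gene was called when the authors' adjusted p from DESeq2 was under 0.05. Stage levels were computed from mean count and fold changes, weighted by 3, 3, 3 and 3 samples in C57BL/6J and 3, 3 and 2 in B6CASTF1. How many B6CASTF1 2-cell samples entered the authors' fit is not stated. The implied levels assume that each strain's fit held only the groups named here. The strain difference was that of the fold changes divided by the combined SE. Its normal p was adjusted by Benjamini-Hochberg over all genes tested in both strains. It takes the authors' SE as exact. Transcript lengths came from the longest coding transcript in GENCODE M21 (GRCm38), and promoters from RefSeq (GRCm38.p6).

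The members, gene lists and motifs were chosen with earlier results of these data known. Every member is described by role, with full values for up to 6 called members in each direction and comparison and up to 4 in each direction between strains, by smallest adjusted p. Of each related list the 2 genes with the smallest adjusted p at the B6CASTF1 2-cell step are named. Alternatives were a threshold of 0.01, no filter on low counts, a minimum mean count of 100, an absolute log2 fold change of at least 1, recentring, shrunken values, SE raised 1.5 times and equal stage weights. Computations used Python 3.11.15 with pandas 2.3.3, numpy 2.4.6 and scipy 1.17.1, and plots matplotlib 3.10.9.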

Additional observations from a re-analysis of the deposited data

Results flagged for a closer look

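For 10 of 49 replication genes the change from G2 zygotes to 2-cell embryos differed between strains by the test of the difference itself. Of these, 5 were higher in B6CASTF1, beside 11.6% of 12573 genes, and 5 lower, beside 5.03%. With every SE raised 1.5 times, 1 of the 10, Dbf4, remained by that test. This step shares its G2 zygotes with the zygote step. The differences of log2 fold changes, B6CASTF1 minus C57BL/6J, were 1.53 for Orc6, 2.04 for Prim2, 0.90 for Gmnn, 2.77 for Orc1 and 1.04 for Orc4. They were -1.75 for Dbf4, -2.34 for Orc5, -9.01 for Rfc2, -0.93 for Pole4 and -1.85 for Mcm10. For Orc6 both strains had called changes of opposite sign, but the B6CASTF1 call was lost on recentring, and both calls were lost with every SE raised 1.5 times. The value of Rfc2 rests on an implied level of 0.19 in C57BL/6J G2 zygotes. Strain, run and library set cannot be told apart here.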

How the results depend on the processing

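No paired analysis was possible because per-sample values are not in the tables, and for the same reason no sample could be left out in turn. Recentring and a mean count of at least 100 moved no count of called members by over 1.5 times, and shrunken values were run for the medians alone. On recentring, the members' medians at the 2-cell step were 0.23 in C57BL/6J and 0.24 in B6CASTF1 (0.45 and 0.46 as reported). With every SE raised 1.5 times, the C57BL/6J counts were 0 up from MII eggs to G1 zygotes (1 as reported), 0 up and 0 down in the zygote (1 and 2), and 4 up and 2 down at the 2-cell step (14 and 6). In B6CASTF1 they were 4 up and 3 down in the zygote (8 and 14), and of the members that differ between strains at the 2-cell step 0 were higher and 1 lower, Dbf4 (5 and 5). Under this setting 30 of the 36 B6CASTF1 calls at the 2-cell step were kept. At an adjusted p under 0.01, 0 members fell in the C57BL/6J zygote and 2, Dbf4 and Orc5, were lower in B6CASTF1 between strains. Without the filter on low counts, 1 member, Orc5, fell in the C57BL/6J zygote. With an absolute log2 fold change of at least 1, 5 rose and 4 fell in the B6CASTF1 zygote. Equal stage weights changed the implied B6CASTF1 levels by -24.5% to 11.8%, and the median over members went from 1409 to 1332 in G1, from 1041 to 1036 in G2 and from 1442 to 1367 in 2-cell embryos. The depth of single libraries is unknown, and the larger SE of C57BL/6J limit what could be called there.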

Other observations

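Many maternal mRNAs are stored with short poly(A) tails and recruited through a cytoplasmic polyadenylation element near the end of the 3' UTR. The letters TTTTAT or TTTTAAT stood in the last 150 nt of the 3' UTR of 21 of the 50 replication genes (42%), against 4315 of 19917 genes of the tables with a coding transcript (21.7%). Every member had an annotated 3' UTR, while any other gene without one was counted as lacking the letters. A 3' UTR shorter than 150 nt was searched whole. Members with the element included both directions of the 2-cell step. Of the 11 that rose in both strains it stood in 6, Cdc45, Gins3, Gmnn, Orc4, Pole and Pole3. Of the 5 that fell in both it stood in 3, Pole2, Rfc3 and Rpa3. A match is a description of letters, and poly(A) tails were not measured.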
